A study of Drosophila simulans with 22 samples.

Results

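The Enhancer of split complex is a cluster of small genes that respond to Notch signaling, and 10 of its members were followed here through the embryogenesis of Drosophila simulans. They were taken from the deposited table of 8460 genes by their D. melanogaster FlyBase numbers, which the table uses in place of D. simulans numbers. All 10 were present, and all 10 passed the filter on low values (a highest hourly value of at least 2 RPM, the unit in which the authors scaled the reads of every sample to the same total). They comprise 7 genes of the basic helix-loop-helix (bHLH) class, E(spl)m8, m7, m5, m3, mβ, mγ and mδ, and 3 genes of the Bearded family, E(spl)mα, m4 and m6.

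In D. melanogaster, Notch receptors activated by a neighboring cell switch on these genes through the DNA-binding protein Suppressor of Hairless. The bHLH members encode repressors that work with the corepressor Groucho and shut off proneural genes, so that cells next to a future neural precursor do not take the neural fate. The Bearded family encodes small proteins that bind the ubiquitin ligase Neuralized and limit its action on the Notch ligand Delta.

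The study profiled promoter activity with RAMPAGE, which sequences cDNAs complete at the 5′ end, so that each read marks a transcription start. Whole embryos of strain w[501], the strain of the reference genome, were collected from population cages in windows of 1 h and aged, giving 22 samples from 0-1 h to 21-22 h after egg laying. All samples share this strain, whose name denotes allele 501 of w, and no treatment or other genotype was included. Each hour had 1 sample, and neighboring hours stand in for replicates. Clusters of 5′ ends, called transcription start site clusters (TSCs), were taken as promoters.

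In the gene table, the value of 1 read gave library totals between 325359 reads (12-13 h) and 17332321 reads (9-10 h), so 3 reads corresponded to between 0.173 and 9.22 RPM. The 95% intervals given below are binomial intervals on reads and cover counting error only. Since a read marks a 5′ end whatever the length of the transcript, RPM levels can be set side by side between genes without a length correction. Duplicates are not marked, so reads of the same molecule could not be told from reads of different molecules. In RNA from whole embryos, fewer expressing cells and less RNA per cell cannot be told apart.

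The 10 genes lay together in the D. simulans genome. The reads of each gene over the 22 hours were identical to those of exactly 1 gene in the list of TSCs, and all 10 matches fell within 42.9 kb of chromosome arm 3R (FlyBase r1.4, 3R:21674516-21717368). From one end to the other the order was mδ, mγ, mβ, mα, m3, m4, m5, m6, m7 and m8. mβ, m4 and m5 were transcribed from the minus strand and the other members from the plus strand. Of the 10 genes, 9 had a single TSC, and m5 had a second one that held 0.646% of its reads. The members' main TSCs had a median width of 29 bp, beside 34 bp over all 25410 TSCs. The start regions of mδ (196 bp), m4 (174 bp) and m7 (111 bp) were the broad ones.

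Members held 97.0% of the reads between the outer ends of the complex. The only other TSC of the interval with more than 46 reads belonged to FBgn0082722, which lies between mα and m3. It had 3852 reads and reached 165.7 RPM at 19-20 h, a time at which the 10 members together stood at 20.6 RPM. The 8 TSCs of the interval that the authors assigned to no gene had 16 to 46 reads each over the series. A further unassigned TSC lay 0.41 kb outside it, on the strand opposite mδ, with 137 reads and a highest value of 4.71 RPM at 6-7 h.

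**Figure D1:**
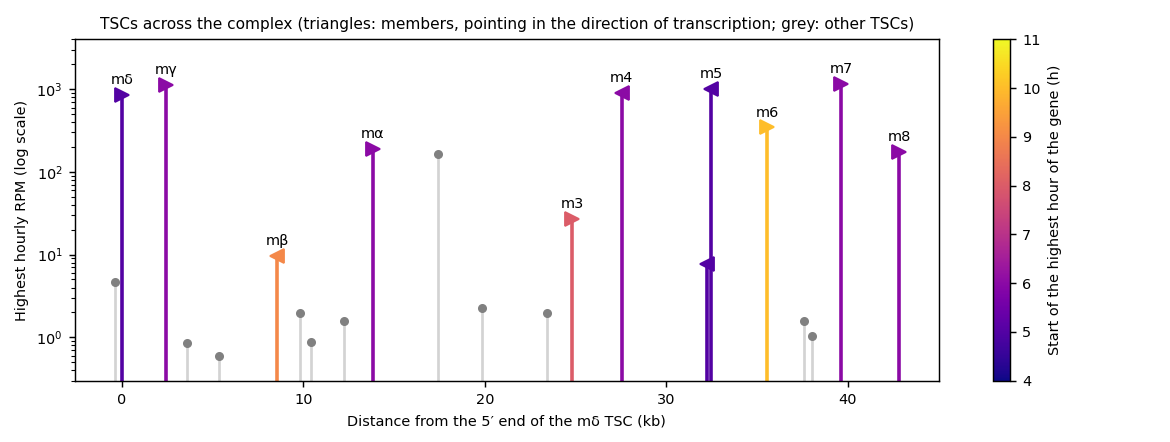
Highest hourly RPM (log scale) of each TSC against distance from the 5′ end of the mδ TSC in kb; triangles are members, pointing in the direction of transcription and colored by the start of the gene's highest hour, and grey points are other TSCs. Members with highest values of 849 RPM or more (mδ, mγ, m4, m5 and m7) stood on both sides of the weak mβ and m3, and m6, highest at 10-11 h, lay between m5 and m7, highest at 5-6 h and 6-7 h.

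As a group, the 10 members produced a single pulse. Their summed signal was 44.9 RPM at 0-1 h and 274 RPM at 2-3 h. In the next sample, 3-4 h, the sum was 1878 RPM. At 6-7 h it reached 5240 RPM, when the 10 genes together supplied 0.524% of all reads. By 9-10 h the sum was 1141 RPM, and the last sample, 21-22 h, held 11.5 RPM. The signal was thus concentrated between 3 and 11 h. Members had a median of 94.9% of their summed RPM within their best 8 consecutive hours, beside a median of 61.6% over the 7074 genes that reached 10 RPM. All 9 members that reached 10 RPM had at least 60% of their signal in such a stretch, as did 53.5% of the 7074 genes. The highest hour was 5-6 h or 6-7 h for 7 of the 10 members, against 5.24% of those genes.

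**Figure D2:**
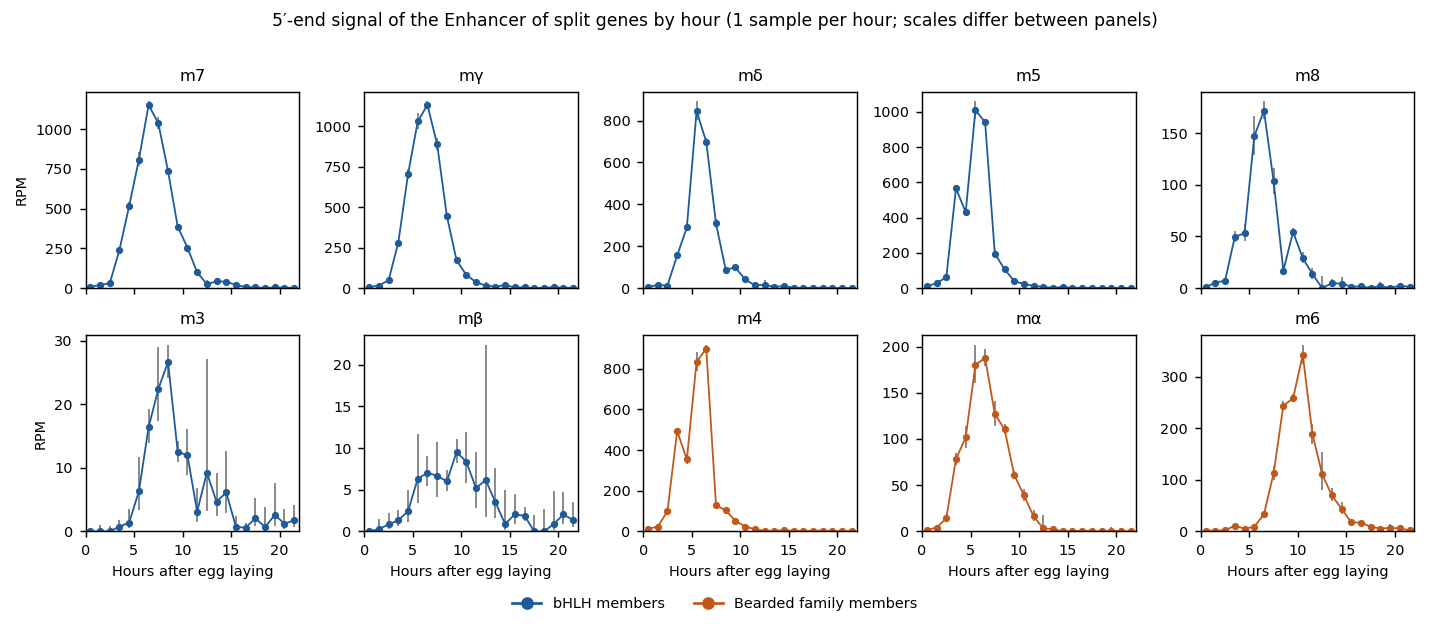
RPM of each member in the 22 hourly samples, by hours after egg laying, with 95% Wilson intervals as vertical bars (bHLH members blue, Bearded family orange; the vertical scale differs between panels). m7 and mγ reached 1153 and 1133 RPM at 6-7 h, m6 reached 342 RPM at 10-11 h, and mβ never passed 9.52 RPM.

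Among the bHLH genes, m7 (FBgn0002633, 3R:21714157-21714267) and mγ (FBgn0002735, 3R:21676935-21676954) were the strongest. In D. melanogaster, mγ is also known from larval neural stem cells, which use it as a Notch target. m7 had 241, 517 and 809 RPM at 3-4, 4-5 and 5-6 h, reached 1153 RPM at 6-7 h (95% interval 1130 to 1176) and still had 1038 and 737 RPM at 7-8 and 8-9 h. mγ had 282, 704 and 1031 RPM at 3-4, 4-5 and 5-6 h, reached 1133 RPM at 6-7 h (1110 to 1156), and had 889 and 446 RPM at 7-8 and 8-9 h. Both climbed in steps over 4 hours and came down gradually, and at 6-7 h their intervals overlapped, so their order at the top was not resolved.

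m5 (FBgn0002631, main TSC 3R:21706958-21706976) and mδ (FBgn0002734, 3R:21674516-21674711), a gene best known from the R4 photoreceptor of the D. melanogaster eye, had narrower pulses. m5 was already at 565 RPM at 3-4 h, stood at 430 RPM at 4-5 h, and had 1010 and 942 RPM at 5-6 and 6-7 h before 195 RPM at 7-8 h. mδ had 155 and 290 RPM at 3-4 and 4-5 h, 846 and 698 RPM at 5-6 and 6-7 h, and 309 RPM at 7-8 h. Both thus had their highest value at 5-6 h. For mδ that value lay above the intervals of both neighboring hours, whereas for m5 it overlapped that of 6-7 h.

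m8 (FBgn0000591, 3R:21717350-21717368), the gene whose dominant mutation gave the complex its name, was weaker, with a highest value of 172 RPM at 6-7 h. It had 49.8, 53.1 and 147 RPM at 3-4, 4-5 and 5-6 h and 103 RPM at 7-8 h. The next sample broke the curve, with 16.9 RPM at 8-9 h (251 reads), followed by 54.4 RPM at 9-10 h (943 reads). The 8-9 h value was 6.12-fold below that of 7-8 h (95% interval 5.13 to 7.31). Within the reads of the members, m8 took 0.896% at 8-9 h (interval 0.792 to 1.01), beside 3.53% at 7-8 h and 4.77% at 9-10 h. The dip was thus also present without any scaling between samples. The share of mδ was also lower in this sample than in its neighbors, with 10.5%, 4.64% and 8.60% of these reads at 7-8, 8-9 and 9-10 h. Its RPM in these hours was 309, 87.4 and 98.1. At 9-10 h over 8-9 h mδ was thus only 1.12-fold higher (95% interval 1.04 to 1.21), beside 3.22-fold for m8 (2.80 to 3.72). The dip of m8 and the low share of mδ rest on 1 sample, and their source was not tested.

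m3 (FBgn0002609, 3R:21699311-21699333) and mβ (FBgn0002733, 3R:21683065-21683082), a gene known from the developing wing of D. melanogaster, were low and late. m3 had 0 reads in each of the samples of 0-3 h, 6.31 RPM at 5-6 h and a highest value of 26.6 RPM at 8-9 h (396 reads). mβ had 6.31 RPM at 5-6 h and stayed between 5.19 and 9.52 RPM until 12-13 h, with its highest value at 9-10 h (165 reads). For both, the intervals of the highest hour overlapped a neighboring hour.

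The Bearded family did not move as one. m4 (FBgn0002629, 3R:21701892-21702065) had 12.1 RPM at 0-1 h (130 reads), when mα and m6 had 1.49 RPM (16 reads) and 1.12 RPM (12 reads). m4 had 493 RPM at 3-4 h, reached 898 RPM at 6-7 h and dropped to 129 RPM in the following hour. mα (FBgn0002732, 3R:21688322-21688357) had 14.2 and 78.3 RPM at 2-3 and 3-4 h, reached 188 RPM at 6-7 h, and still had 127 and 111 RPM at 7-8 and 8-9 h. m6 (FBgn0002632, 3R:21710078-21710112) was at 8.84 RPM at 5-6 h, when m4 and mα stood at 834 and 180 RPM, and reached 342 RPM at 10-11 h (323.7 to 362.0). m6 was the last member to reach its highest value, and that hour was above the intervals of both its neighbors.

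**Figure D3:**
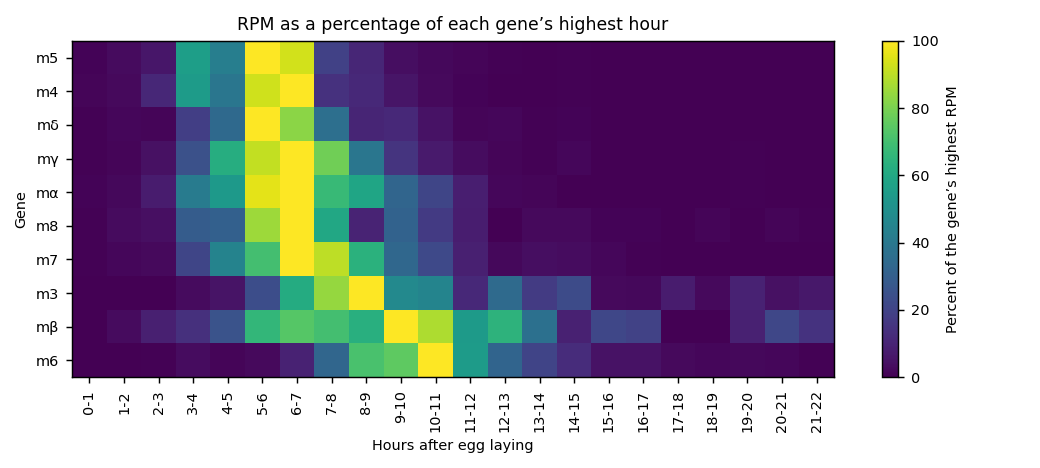
RPM of each member as a percentage of its own highest hour (color), by hours after egg laying, with genes ordered by the RPM-weighted mean hour. The weighted mean was 5.58 h for m5 and 5.60 h for m4 at the top, 7.15 h for m7, and 9.72, 9.98 and 10.4 h for m3, mβ and m6 at the bottom.

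To ask which members changed over the series, a smooth curve of hour was fitted to the log2(RPM + 1) values of 8249 genes with limma. All 10 members changed at an adjusted p below 0.05, as did 92.4% of all genes, so the call says little about the members. Their fitted curves spanned a median of 8.08 log2 units over the members, beside 2.82 over all genes. mδ spanned 533-fold and m5 496-fold, whereas m3 and mβ spanned 28.9-fold and 10.8-fold. Of the 26 other genes of the Notch pathway, the proneural genes and their relatives that were looked for by FlyBase number, 20 were in the table. The 26 included E(spl)m1 and E(spl)m2-BFM, which belong to the complex but are not among the 10 members. All 20 changed over the series, with a median span of 4.17 log2 units.

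Windows of 3 or 4 hourly samples were then compared in 1 limma fit, with the hours of a window in the place of replicates. At 3-6 h over 0-3 h, the time when the zygotic genome becomes active, all 10 members rose, as did 10.2% of all genes. For all 10, each of the samples of 3-6 h was above each of those of 0-3 h, which held for 16.6% of genes. mγ had 282, 704 and 1031 RPM at 3-6 h, against 5.95, 15.1 and 48.7 RPM at 0-3 h, a difference of 5.06 ± 0.65 on the log2(RPM + 1) scale (SE, limma adjusted p = 2.98e-06). mδ averaged 430 ± 366 RPM at 3-6 h and 10.7 ± 4.40 RPM at 0-3 h (SD over 3 hours), a difference of 4.94 ± 0.72 (adjusted p = 1.35e-05). m3 had 19 reads at 3-6 h and none at 0-3 h. When 3 reads are put over the pooled samples of 0-3 h, m3 was 10.9-fold higher at 3-6 h. This ratio is not a lower limit, since it leaves out the counting error of the 19 reads (pooled value 1.69 RPM, interval 1.08 to 2.64).

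The differences of the other members at this step were 4.71 (m7), 4.56 (m5), 4.30 (mα), 4.06 (m4), 3.98 (m8), 1.95 (m6) and 1.55 (mβ). The calls of m3 (adjusted p = 0.0218), mβ (adjusted p = 0.0383) and m6 (adjusted p = 0.00805) rested on low levels. With a pseudocount of 5 in limma, their adjusted p became 0.142, 0.0634 and 0.102. Without the 5-6 h sample, the limma adjusted p was 0.192 for m3 and 0.221 for mβ, and both were above 0.05 without the 0-1 h or the 1-2 h sample too (mβ also without 4-5 h). Of the 20 other pathway genes, 10 rose and 0 fell in the limma fit, with a median difference of 1.57 beside 0.00 over all genes and 4.18 over the members.

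Comparisons of neighboring hours, which were chosen after the values were seen and set 1 sample against 1 sample, describe the onset further. At 3-4 h over 2-3 h, mδ was 13.1-fold higher (95% interval 10.0 to 17.4), m5 9.32-fold and m7 8.09-fold. In the same step m8 was 6.83-fold higher (4.81 to 9.96), m6 5.91-fold (2.95 to 13.4, on 9 reads at 2-3 h), mγ 5.78-fold (5.04 to 6.65), mα 5.52-fold (4.29 to 7.22) and m4 4.98-fold (4.53 to 5.50). The intervals of m8, m6, mγ, mα and m4 overlapped, so the order of these genes was not resolved. The next hour gave a graded picture. At 4-5 h over 3-4 h, mγ, m7 and mδ were 2.50-fold, 2.15-fold and 1.86-fold higher, mα was 1.30-fold higher, and m8 was at 1.07 times its level of 3-4 h (interval 0.875 to 1.29). In the same hour m5 was at 0.761 times (interval 0.714 to 0.812) and m4 at 0.718 times (0.669 to 0.770) its level of 3-4 h, and m6, with 15 reads at 4-5 h, was at 0.470 times (0.251 to 0.825). m3 and mβ had under 10 reads in both hours.

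At 6-9 h over 3-6 h, m3 and m6 rose, or 2 of 10 members, against 6.5% of all genes (536 genes, and 228 without the 8-9 h sample). No member fell at this step, against 1.47% of genes. m6 had 33.1, 113 and 244 RPM at 6-9 h, against 11.1, 5.20 and 8.84 RPM at 3-6 h, a difference of 3.44 ± 0.54 (limma adjusted p = 0.000277). m3 had 16.4, 22.4 and 26.6 RPM at 6-9 h, against 0.738, 1.39 and 6.31 RPM at 3-6 h, a difference of 2.84 ± 0.52 (limma adjusted p = 0.00114). For these 2 genes the windows did not overlap, which held in that direction for 19.3% of genes, and for the other 8 members they did. The differences of those 8 lay between -1.21 (m5) and 1.04 (m7). For m8 the log2 difference was -0.11 while its mean RPM was 1.17-fold higher, and without the 8-9 h sample its difference was 0.86. For mδ the difference was -0.34, and 0.46 without the 8-9 h sample. m5 passed the threshold without the 6-7 h sample (-2.11, limma adjusted p = 0.0274). Among the 20 other pathway genes, 1 rose and 0 fell.

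Within this span the members came down at different hours. At 7-8 h over 6-7 h, m4 was 6.99-fold lower (95% interval 6.26 to 7.83) and m5 was 4.82-fold lower (4.40 to 5.29). Over the same hour mδ was 2.26-fold lower, m8 1.67-fold, mα 1.48-fold, mγ 1.27-fold and m7 1.11-fold, while m6 was 3.41-fold higher (2.88 to 4.03). m4 and m5, which are neighbors on the minus strand, were thus both lower at 4-5 h than at 3-4 h, when m7 and mγ were higher, and had larger drops than m7 and mγ at 7-8 h.

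**Figure D4:**
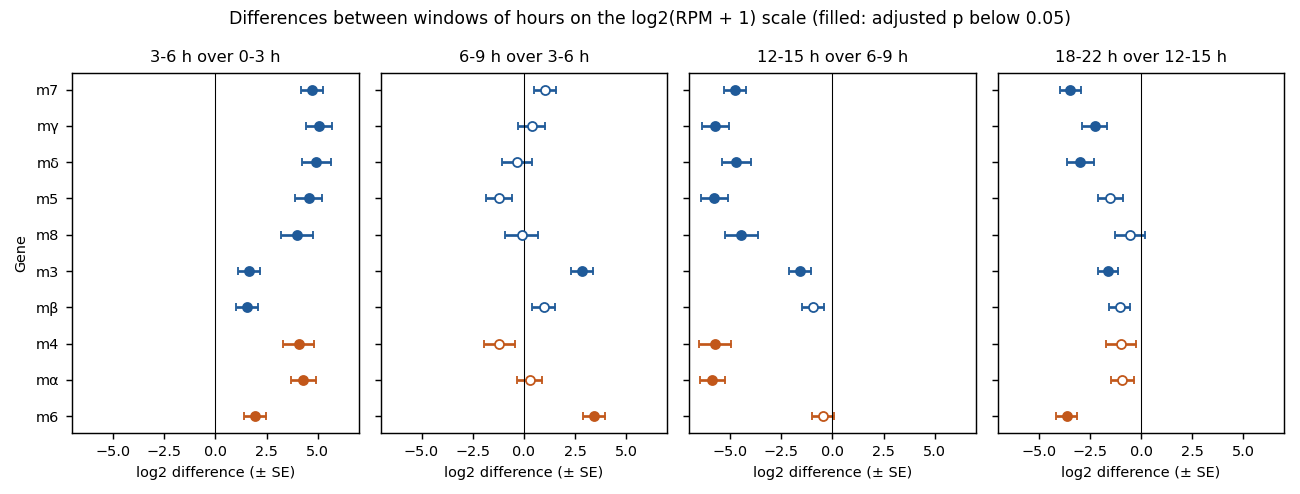
Differences between windows of hours for each member on the log2(RPM + 1) scale, with standard errors as horizontal bars, from 1 limma fit (filled points have an adjusted p below 0.05; blue bHLH, orange Bearded family). All 10 points were filled for 3-6 h over 0-3 h, those of m3 and m6 for 6-9 h over 3-6 h, 8 for 12-15 h over 6-9 h and 5 for 18-22 h over 12-15 h.

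At 12-15 h over 6-9 h, 8 of 10 members fell, against 22.7% of all genes. The windows of these 8 did not overlap, which held in that direction for 27.9% of genes. mα had 3.07, 2.34 and 0 RPM at 12-15 h, against 188, 127 and 111 RPM at 6-9 h, a difference of -5.87 ± 0.61 (limma adjusted p = 3.83e-07). m7 had 24.6, 42.1 and 40.2 RPM at 12-15 h, against 1153, 1038 and 737 RPM at 6-9 h, a difference of -4.75 ± 0.55 (limma adjusted p = 8.51e-07). m5, m4 and mγ had differences of -5.77, -5.74 and -5.72, and those of mδ, m8 and m3 were -4.70, -4.46 and -1.59. Mean RPM was 103-fold lower for m4, 94.6-fold for m5, 78.6-fold for mα and 58.1-fold for mγ. Over 12-15 h mα had 5 reads, m5 and m4 11 each and mγ 41, so the order of these genes was not resolved.

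m6 and mβ were not called at this step. m6 had 111, 69.6 and 43.7 RPM at 12-15 h, against 33.1, 113 and 244 RPM at 6-9 h (difference -0.48 ± 0.54, limma adjusted p = 0.50). mβ had 6.15, 3.51 and 0.874 RPM at 12-15 h, against 7.02, 6.68 and 5.99 RPM at 6-9 h (difference -0.94 ± 0.55, limma adjusted p = 0.167). Of the 20 other pathway genes, 16 fell and 1 rose, with a median difference of -2.27 beside -0.12 over all genes and -4.72 over the members. The call of m3 (limma adjusted p = 0.0171) did not hold after division by DESeq2 size factors (adjusted p = 0.0604), without the 8-9 h sample (0.0579) or without the 13-14 h sample (0.0636).

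At 18-22 h over 12-15 h, 5 of 10 members fell, against 28.9% of all genes (2380 genes, and 1049 after division by TMM factors). These were m6, m7, mδ, mγ and m3, with differences of -3.63, -3.46, -2.96, -2.26 and -1.60. The call of m3 did not hold with TMM factors (adjusted p = 0.0821), DESeq2 size factors (0.0814) or edgeR (0.0562), nor that of mδ with a pseudocount of 5 (0.0587). m6 had 5.48, 6.86, 5.66 and 2.09 RPM at 18-22 h, against 111, 69.6 and 43.7 RPM at 12-15 h (limma adjusted p = 8.15e-06). m7 had 1.37, 3.43, 2.43 and 2.09 RPM at 18-22 h, against 24.6, 42.1 and 40.2 RPM at 12-15 h (limma adjusted p = 1.63e-05). For the other 5 members the differences lay between -1.51 (m5, limma adjusted p = 0.0504) and -0.54 (m8). For these 5 called genes and for m5 the windows did not overlap, as in 29.3% of genes.

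By 18-22 h little signal was left of the 10 members, which had 2 (mα) to 36 (m6) reads each over the 4 samples. The shallowest sample, 12-13 h, lies in the other window, where 3 reads were worth 9.22 RPM. Without it, the adjusted p of m3 was 0.0577 in limma. Without the 14-15 h sample, mα and mβ passed the threshold (-1.55 and -1.57, limma adjusted p = 0.0352 and 0.0215). Of the 20 other pathway genes, 9 fell and 0 rose. Dividing by TMM factors moved the median of all genes at this step by 0.52, and the differences of all 10 members remained below 0 under each alternative run.

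Because reads of 1 sample share 1 scale, the make-up of the reads of the 10 genes could be followed without normalization. At 3-4 h m5 and m4 led with 30.1% and 26.3% of the reads of the 10 genes. At 6-7 h m7 and mγ led with 22.0% and 21.6%, and m5 and m4 had 18.0% and 17.1%. At 8-9 h m7 had 39.1% and m4 5.48%. m6 held 0.181% at 5-6 h (14 of 7724 reads, 95% interval 0.108 to 0.304), 12.9% at 8-9 h, 40.1% at 10-11 h and 57.1% at 12-13 h (36 of 63 reads, 44.9 to 68.6). The order was not resolved in every hour. At 5-6 h the intervals of mγ (21.1%) and m5 (20.7%) overlapped, as did those of m4 (17.1%) and m7 (16.6%). m6 and m7 also overlapped at 14-15 h (32.7% and 30.1%) and at 15-16 h (34.7% and 38.1%).

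**Figure D5:**
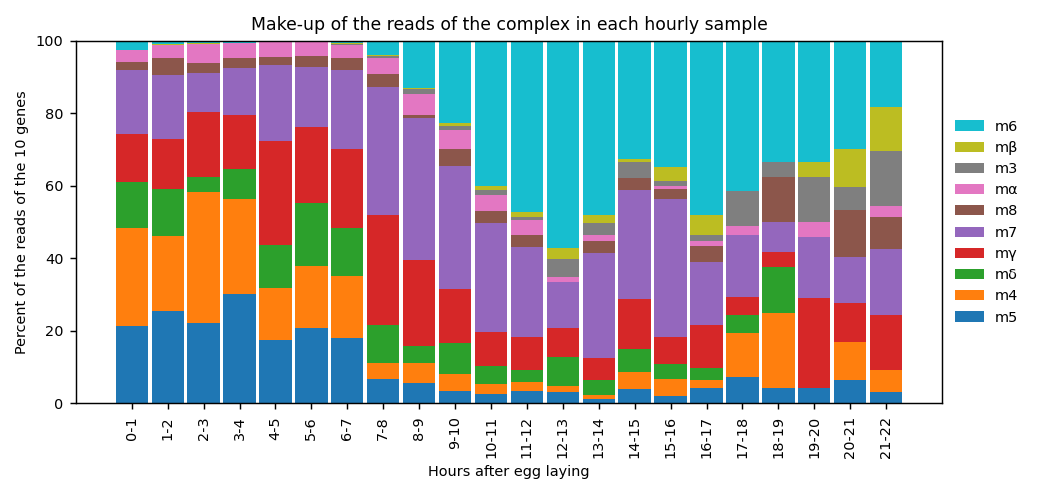
Percentage of the reads of the 10 genes that each gene supplied (stacked bars) in each hourly sample, by hours after egg laying. m5 and m4 together are the largest part at 3-4 h (30.1% and 26.3%), m7 at 8-9 h (39.1%) and m6 at 10-11 h (40.1%). The samples of 17-18 h and later hold 24 to 47 reads of the 10 genes each.

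Across the 22 hours, the log2(RPM + 1) values of the members correlated with a median Pearson r of 0.80 over 45 pairs. Over pairs of the 7074 genes that reached 10 RPM, which mβ did not, the median was 0.14. These points share their libraries and the common rise and decline, and the values describe likeness only. The closest pair was m5 and m4 (r = 0.99) and the least alike was m4 and m6 (r = 0.10). The 9 pairs of adjacent members had a median r of 0.66 and the other pairs one of 0.84. Adjacent pairs without m3, mβ or m6 had r of 0.97 (mγ and mδ), 0.99 (m5 and m4) and 0.91 (m8 and m7). Adjacent pairs that included any of these late genes lay between 0.14 (m5 and m6) and 0.67 (mβ and mα). The medians therefore do not tell whether adjacent members were the more alike. Outside the members, the gene most like the summed bHLH members was FBgn0000071 (r = 0.98, highest value 198 RPM at 5-6 h), followed by FBgn0036734 (r = 0.97). FBgn0000071 (r = 0.97) and FBgn0265434 (r = 0.97) were most like the summed Bearded family members.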

How the data were processed

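RAMPAGE reads of 22 D. simulans samples were mapped by the authors with STAR to FlyBase r1.4, and TSCs were called after pooling the samples, with peaks over rDNA removed. Per the labels, samples were barcoded, pooled into 1 library and sequenced on 1 lane. The authors deposited RPM per gene and per TSC. The deposited TSC list also holds a score whose meaning is not stated in the sources used here. A table of aligned Z-scores was not used. Dividing each RPM value by the value of 1 read gave whole reads (within 0.1 read) for 100% of the gene values, from which depth and 95% Wilson intervals were computed. Intervals of ratios between hours are exact binomial intervals. Duplicates are not marked in these tables.

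Since the deposited unit is RPM, log2(RPM + 1) values were tested with limma 3.58.1 with trend (R 4.3.3), leaving out genes that never reached 2 RPM. The fits were a natural spline of hour with 4 degrees of freedom and a fit of 7 windows with 4 contrasts, with Benjamini-Hochberg adjustment over 8249 genes. Fold changes on this scale understate those of weak genes. edgeR 4.0.16 on recovered reads, DESeq2 1.42.0 size factors, TMM factors, other pseudocounts, filters and spline degrees, and leaving out each hourly sample were alternatives. The scripts were tested on simulated data. Hours of a window are not replicates, so p-values measure spread between single samples, including change within a window.

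All members were named; the genes most alike were those with the highest correlation among genes of at least 10 RPM. Members and lists were chosen with earlier results of these data known, and the comparisons of single hours after the values were seen. Gene names come from the FlyBase numbers of D. melanogaster; other genes are given by number, since no table used here names them.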

Additional observations from a re-analysis of the deposited data

Results flagged for a closer look

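The 8 TSCs between the members that the authors assigned to no gene enter no comparison of the report. They held 236 reads in all over the 22 samples, above the 3 reads that a count of 0 allows, and no single one passed 1.98 RPM in any hour.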

How the results depend on the processing

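No paired analysis was possible because each hour has 1 sample. The counts of called genes stayed within 1.5 times the reported count in 37 of 37 alternatives other than leaving out a sample. They did so in 106 of 110 fits that left out 1 hourly sample; the exceptions were all at 6-9 h over 3-6 h (657 genes), where the range was 270 to 849 genes (287 without the 3-4 h sample, 401 without 4-5 h, 338 without 7-8 h and 270 without 8-9 h). Scaling changed the balance of genes that rose and fell: at 18-22 h over 12-15 h, 878 rose and 2380 fell, against 1496 and 1049 with TMM and 1617 and 1029 with DESeq2 size factors. With DESeq2 size factors the balance was 1959 and 1284 at 12-15 h over 6-9 h (1697 and 1869 as reported), 1091 and 966 at 3-6 h over 0-3 h (842 and 1319), and 387 and 221 at 6-9 h over 3-6 h (536 and 121). The median of all genes moved by 0.52 (TMM) and 0.56 (DESeq2) at the first of these steps and by 0.22 and -0.15 with DESeq2 at 12-15 h over 6-9 h and 6-9 h over 3-6 h. Values of members kept direction and call in 351 of 365 other alternatives and in 1075 of 1100 fits without 1 sample. Direction turned for m8 at 6-9 h over 3-6 h with edgeR (0.24) and, leaving out 1 sample, without 5-6 h (0.39) or 8-9 h (0.86), for mδ without 5-6 h (0.33) or 8-9 h (0.46), and for mγ without 3-4 h (-0.15); at 12-15 h over 6-9 h it turned for m6 without 8-9 h (0.18). None of these was called; over all fits without 1 sample, the ranges were -0.78 to 0.86 (m8), -1.03 to 0.46 (mδ), -0.15 to 0.78 (mγ) and -1.24 to 0.18 (m6). Calls were lost for m3 at 3-6 h over 0-3 h without 0-1, 1-2 or 5-6 h, and for mβ without these or 4-5 h, with a pseudocount of 0.1 or with DESeq2 size factors. m3 lost its call at 18-22 h over 12-15 h with TMM, DESeq2 size factors and edgeR, and at 12-15 h over 6-9 h with a pseudocount of 0.1 and without 8-9 or 13-14 h; mδ lost its call at 18-22 h over 12-15 h with a pseudocount of 5. m5 at 6-9 h over 3-6 h was called without 6-7 h (-2.11, adjusted p = 0.0274). At 18-22 h over 12-15 h, m5 was called with a pseudocount of 0.1, with a filter at 10 RPM and without 0-1, 2-3, 6-7, 8-9, 11-12 or 13-14 h. The highest hour moved to 5-6 h for mα and m4 with DESeq2 size factors, and for mα after thinning to the shallowest sample. The cause of these changes was not tested.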
